A study of Mus musculus with 6 samples.

Results

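HOX, MEIS and stem cell transcription factors were followed here as 9 genes: Hoxa5, Hoxa9, Hoxa10, Hoxb4, Meis1, Hlf, Mecom, Mllt3 and Prdm16. They were taken as every probe set of the array whose single annotated gene symbol is 1 of these names, which gave 23 of the 45037 probe sets and 9 of the 18193 genes measured. The probe set rule used no measured value, but the 9 genes were chosen with earlier results of these data known. The data are 6 array profiles of mouse bone marrow cells sorted as Lin- Sca1+ CD150+ CD48+, which the study calls committed progenitors. The double knockout (dKO) group came from MxCre c-myc f2 N-myc f2 mice, in which the Cre recombinase, driven by the interferon-responsive Mx promoter in blood cells and other tissues, removes the floxed c-Myc and N-Myc genes. The Control group came from c-myc f2 N-myc f2 mice with the same floxed alleles and no MxCre. All mice were 8 weeks old and of mixed background. They were injected with pI-pC, which induces interferon, on 2 days and sampled 3 days after the second injection. There were 3 dKO arrays with RNA pooled from 3 mice apiece and 3 Control arrays with RNA pooled from 2 mice apiece. Since MxCre was present only in dKO mice, an effect of the transgene cannot be told apart from the loss of both Myc genes.

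HOX genes lie in 4 clusters and encode homeodomain proteins, which bind DNA together with cofactors of the TALE class, the MEIS and PBX proteins. In blood-forming tissue the Hoxa genes and Meis1 are active in stem cells and early progenitors and are switched off as cells mature, and Hoxa9 with Meis1 transforms mouse progenitors into leukaemia when both stay on. Hlf, Mecom, Mllt3 and Prdm16 are further regulators that are known for maintaining stem cells, and their proteins belong to other families. The comparison shows how the transcripts of these genes differ in progenitors that lost c-Myc and N-Myc.

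Values are on the log2 scale, so a difference of 1 is 2-fold, and fold changes are dKO minus Control. Myc was lower in all dKO pools, at 7.99, 7.87 and 7.44 in dKO against 10.8, 10.9 and 10.5 in Control, and fell by 2.97 ± 0.21 (SE; 7.84-fold, adjusted p = 0.00014). The Mycn probe set 1417155_at stood at 4.42, 3.28 and 4.47 in dKO against 9.57, 8.93 and 9.48 in Control, whereas 1425922_a_at overlapped between the groups and 1425923_at was slightly higher in each dKO pool. Where these probe sets sit relative to the floxed exons was not examined here. Of the gate's genes, Slamf1 (CD150) averaged 9.10 ± 0.61 in dKO and 8.31 ± 0.52 in Control, and Cd48 averaged 11.4 ± 0.23 in dKO and 11.2 ± 0.12 in Control (SD, n = 3 each); Ly6a (Sca1) was not analysed here. Xist, which female cells transcribe from the silenced X chromosome, was high in dKO 1 and Control 1 only (11.3 and 10.6 by 1436936_s_at, and at most 5.33 in the other pools), so calls are also given without these pools. For Control 1 the tissue entry reads LT-HSCs, while its title and gate match those of the other Control pools. Correlations over all probe sets were 0.969 to 0.980 among dKO arrays and 0.981 to 0.986 among Control arrays, with dKO 3 the farthest from its group. Between the groups they were 0.956 to 0.971, and dKO 2 was slightly closer to Control 2 (0.9709) than to dKO 3 (0.9701).

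Of the 9 genes, Hoxa9 was lower and Mllt3 higher in dKO progenitors, both by less than 2-fold, and the other 7 did not pass the test. The Hoxa9 transcript fell 1.70-fold and the Mllt3 transcript rose 1.78-fold. Each gene was represented by its probe set with the highest mean, and calls needed an adjusted p under 0.05 over all 18193 genes (limma). That makes 2 of 9 genes called, or 22.2%, where the same test called 5.97% of all genes (3.12% higher and 2.85% lower). The median log2 fold change of the 9 genes was -0.18, beside 0.05 over all genes, with 4 above and 5 below 0. The pools of the groups did not overlap in 5 of the 9 genes: Hoxb4, Mecom and Mllt3 lay higher in every dKO pool, and Hoxa9 and Prdm16 lower. Over all genes 23.4% did not overlap, 12.7% with dKO above and 10.7% with dKO below. When every probe set was tested by itself, 2 of the 23 were called, or 8.70%, where 3.60% of all probe sets were (1.83% higher and 1.78% lower), and 7 of the 23, or 30.4%, did not overlap, where 21.3% of all did. In bulk RNA of sorted cells, fewer cells of a type and less RNA per cell cannot be told apart.

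**Figure D1:**
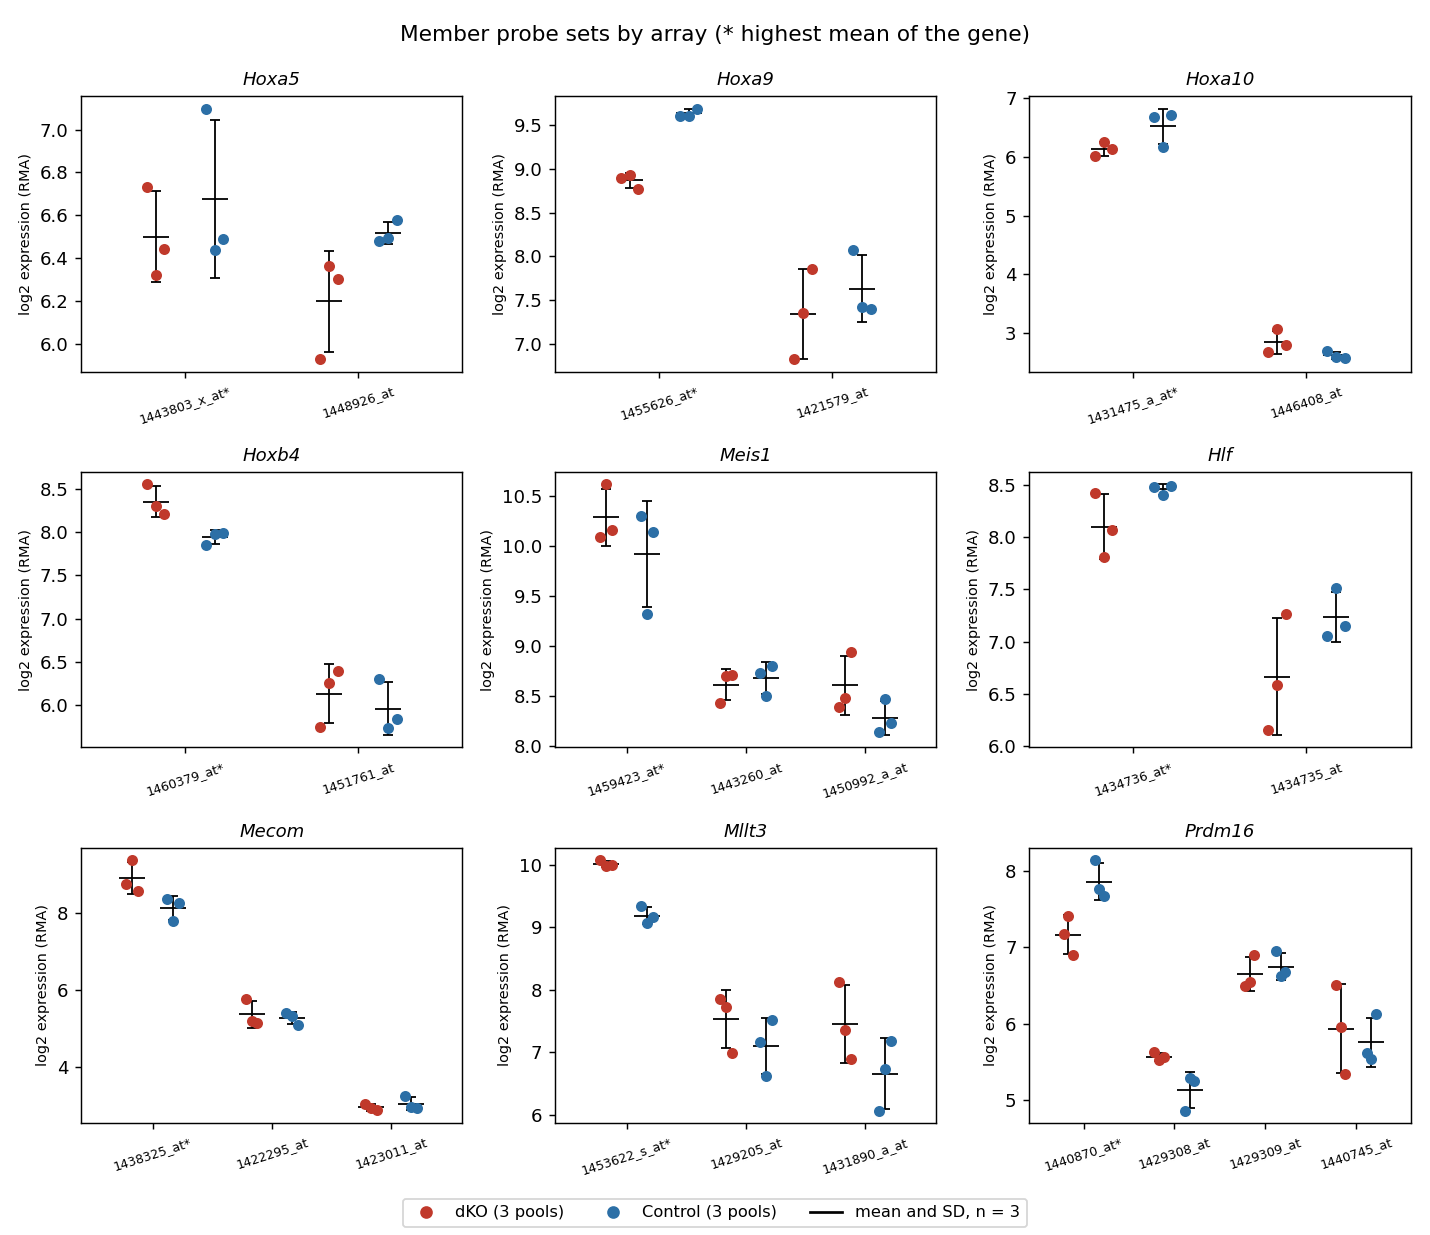
Log2 expression of the 23 probe sets in the 3 dKO pools (red, left) and the 3 Control pools (blue, right), with the mean and SD (n = 3); each panel is a gene with its own vertical scale, and an asterisk marks the probe set with the highest mean. The groups stand clear of each other in Hoxa9 1455626_at and Mllt3 1453622_s_at, and the pools interleave in 16 of the 23.

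Hoxa9, the homeobox gene that works with Meis1 in early progenitors, was measured at 8.90, 8.93 and 8.78 in dKO 1 to 3, against 9.61, 9.61 and 9.69 in Control 1 to 3 (probe set 1455626_at). All dKO pools lay below all Control pools, and each group was tight. Hoxa9 fell by 0.76 ± 0.16 (SE; 8.87 ± 0.08 in dKO and 9.63 ± 0.05 in Control, SD, n = 3; adjusted p = 0.0226). Its other probe set, 1421579_at, gave 6.83, 7.36 and 7.85 in dKO, against 8.07, 7.42 and 7.40 in Control. There the groups overlapped, with a change of -0.29 (95% interval -0.96 to 0.39) that did not pass. The call on 1455626_at was lost without dKO 1 (adjusted p = 0.0677), Control 1 (0.0720), Control 2 (0.0829) or Control 3 (0.108), and without Control 1 and dKO 1 together (0.162), while the change stayed between -0.80 and -0.72. It was also lost when the gene's probe sets were averaged (-0.52, adjusted p = 0.129).

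Mllt3 encodes AF9, a reader of acylated histones that brings the methyltransferase DOT1L and elongation factors to genes, and in human stem cells it maintains self-renewal. It was measured at 10.1, 9.99 and 9.99 in dKO 1 to 3, against 9.33, 9.06 and 9.16 in Control 1 to 3 (probe set 1453622_s_at). All dKO pools lay above all Control pools. Mllt3 rose by 0.83 ± 0.16 (SE; 10.02 ± 0.05 in dKO and 9.19 ± 0.14 in Control, SD, n = 3; adjusted p = 0.0182). The remaining probe sets pointed the same way without passing: 1431890_a_at differed by 0.80 (95% interval -0.03 to 1.63) and 1429205_at by 0.43 (-0.25 to 1.11), and in both the groups overlapped. The ending _s_at of the called probe set marks probes that match several transcripts, so its signal is less certain as that of 1 gene, and without such probe sets the gene's change was 0.43 with adjusted p = 0.526. The call was lost without dKO 1 (adjusted p = 0.0671), Control 2 (0.0866) or Control 3 (0.0827), without Control 1 and dKO 1 together (0.115), and with the mean of the gene's probe sets (0.69, adjusted p = 0.110).

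The sequence before each start site is shown for the 2 called genes and for Mecom, because MYC with its partner MAX binds the E-box CACGTG and because the proteins of these genes have sites of their own that can be looked for. RefSeq (GRCm38.p6) gave 12 start sites for the 9 genes, all 9 with at least 1, and the 250 bases before each were searched on both strands. The E-box, which reads the same on both strands, was in 0 of the 12 windows, and 6.02% of all 32851 windows held it. TGACAG, the MEIS site, was in 2 of the 12 (15.9% of all), TGATNNAT, a joint HOX and PBX site, in 1 (7.68%), and TTACGTAA, the site of HLF and its relatives, in 0 (0.113%). The windows printed run 5′ to 3′ on the gene's strand, with matches to any of these motifs in capitals and everything else in lower case. They are Hoxa9 at chr6:52227371-52227620, Mllt3 at its outer start (chr4:88033408-88033657) and inner start (chr4:87806324-87806573), and Mecom at its outer start (chr3:30509760-30510009), all on the minus strand.
Hoxa9: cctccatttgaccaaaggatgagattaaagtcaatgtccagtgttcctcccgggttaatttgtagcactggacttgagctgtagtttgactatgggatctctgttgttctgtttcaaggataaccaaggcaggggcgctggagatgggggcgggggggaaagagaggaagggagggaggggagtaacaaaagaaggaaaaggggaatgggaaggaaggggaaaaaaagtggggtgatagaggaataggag
Mllt3, outer start: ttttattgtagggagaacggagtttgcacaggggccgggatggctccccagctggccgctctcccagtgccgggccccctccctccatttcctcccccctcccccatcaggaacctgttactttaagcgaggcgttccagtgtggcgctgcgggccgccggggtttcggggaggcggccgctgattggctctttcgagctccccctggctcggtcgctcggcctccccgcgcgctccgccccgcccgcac
Mllt3, inner start: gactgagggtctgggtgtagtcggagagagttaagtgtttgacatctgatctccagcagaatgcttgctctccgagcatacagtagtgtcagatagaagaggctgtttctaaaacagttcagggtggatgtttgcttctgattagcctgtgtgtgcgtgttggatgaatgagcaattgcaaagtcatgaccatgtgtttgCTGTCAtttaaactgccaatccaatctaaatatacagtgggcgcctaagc
Mecom, outer start: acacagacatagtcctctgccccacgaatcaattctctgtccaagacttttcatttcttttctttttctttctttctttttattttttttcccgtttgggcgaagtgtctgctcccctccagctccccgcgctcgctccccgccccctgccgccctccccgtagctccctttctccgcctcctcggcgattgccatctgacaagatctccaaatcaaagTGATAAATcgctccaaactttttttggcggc
The Hoxa9 window held none of the motifs. The MEIS match in Mllt3 lies at its inner start, and that of Mecom at its inner start, whose window is not printed. A match is a run of letters and not a measured binding site, and a window without one says nothing of sites elsewhere. GC content was 49.6% in the Hoxa9 window and 69.2% and 45.2% in the outer and inner Mllt3 windows, with a median of 52.4% over all windows.

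Hoxa10 and Hoxa5 of the same cluster averaged below Control by their brightest probe sets and did not pass. Hoxa10, the next gene of the cluster, had 6.01, 6.26 and 6.13 in dKO, against 6.67, 6.16 and 6.71 in Control (1431475_a_at). Control 2 lay among the dKO pools, and the change of -0.38 (95% interval -0.83 to 0.06) had an adjusted p of 0.365. The second Hoxa10 probe set, 1446408_at, was dim at 2.59 to 3.06 and differed by 0.23. Hoxa5 had 6.73, 6.32 and 6.44 in dKO, against 7.10, 6.44 and 6.49 in Control by 1443803_x_at, a change of -0.18 (-0.68 to 0.33; adjusted p = 0.772). That value turned to 0.035 without Control 1, which held the highest signal. Its probe set 1448926_at had 5.93, 6.36 and 6.30 in dKO, against 6.48, 6.49 and 6.58 in Control. Here all dKO pools lay below Control, by 0.32 on average, without passing (adjusted p over all probe sets = 0.464).

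Hoxb4, whose forced expression expands mouse stem cells, averaged above Control and did not pass. The probe set 1460379_at had 8.56, 8.30 and 8.21 in dKO, against 7.85, 7.98 and 8.00 in Control. Every dKO pool lay above every Control pool, and the change of 0.41 (95% interval 0.03 to 0.80) did not pass (adjusted p = 0.237). By 1451761_at Hoxb4 had 5.74, 6.26 and 6.39 in dKO, against 6.30, 5.73 and 5.84 in Control, and the groups overlapped.

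The rest of the HOX family was taken as every other measured gene named Hoxa, Hoxb, Hoxc or Hoxd with a number. Of these 29 genes limma called 0 as higher and 0 as lower, 0 lay under an unadjusted p of 0.05, and 0 of their 40 probe sets passed. Their median log2 fold change was 0.12, and their values ran from -0.89 for Hoxb5 to 0.32 for Hoxd13. Most of the 29 were dim, and only Hoxa3, Hoxa7 and Hoxc9 had a mean above the median of all genes. Hoxd10, at 2.60 in dKO and 2.32 in Control, stood close to the lowest value of all, 1.53. A dim gene without a call is not thereby shown to be expressed and unchanged. Hoxb5, which marks long-term stem cells in the mouse, had 4.65, 5.53 and 5.62 in dKO, against 6.74, 5.17 and 6.55 in Control, so Control 2 lay among the dKO pools (-0.89 ± 0.41, SE; adjusted p = 0.304). Together with the 4 HOX genes described above, 1 of 33 HOX genes passed, where 5.97% of all genes were called. Within clusters, 6 of 9 Hoxa genes were below 0 (median -0.15), as were 2 of 9 Hoxb genes (median 0.16), 1 of 7 Hoxc genes (median 0.15) and 2 of 8 Hoxd genes (median 0.12). Whether the clusters differ from each other was not tested.

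**Figure D2:**
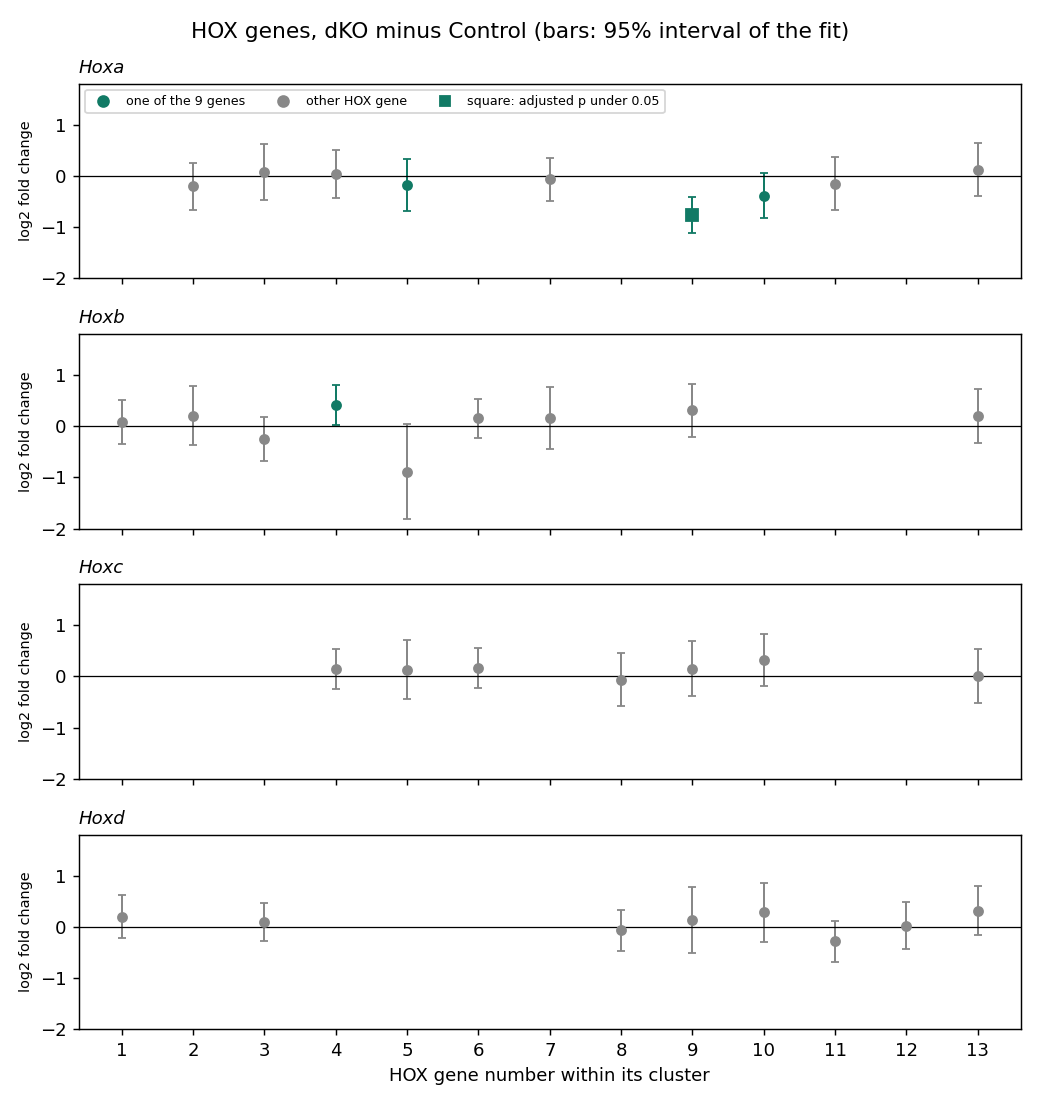
Log2 fold change, dKO minus Control, of 33 HOX genes by their number within the cluster, with the 95% interval of the fit; green marks Hoxa5, Hoxa9, Hoxa10 and Hoxb4, and the square marks an adjusted p under 0.05. Hoxa9 at -0.76 is the 1 gene that passed, and the interval of every gene other than Hoxa9 and Hoxb4 spans 0. Most of the other HOX genes, in grey, had a mean below the median of all genes.

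Meis1, the TALE partner of HOX proteins that also limits oxidative stress in stem cells, did not differ beyond the spread of its pools. Its brightest probe set, 1459423_at, had 10.1, 10.6 and 10.2 in dKO, against 10.3, 9.32 and 10.1 in Control. Control 2 was lowest and the other pools interleaved (change 0.37, 95% interval -0.25 to 0.99, adjusted p = 0.568), and without Control 2 the value was 0.07. The probe sets 1450992_a_at and 1443260_at differed by 0.33 (-0.14 to 0.79) and -0.06 (-0.47 to 0.34). Among 9 other TALE genes 1 was higher and 1 lower, with a median of 0.09, where 5.97% of all genes were called. Pbx3, a HOX cofactor, averaged 6.57 in dKO and 5.53 in Control and rose by 1.04 ± 0.20 (SE; adjusted p = 0.0159), a call lost without dKO 2 (0.0509), Control 1 (0.0603) or Control 3 (0.0733). Its probe set 1447640_s_at differed by 1.42 and did not pass. Tgif2, a TALE repressor, averaged 7.28 in dKO and 8.43 in Control and fell by 1.15 ± 0.24 (SE; adjusted p = 0.0234), a call lost without Control 2 (0.0910) or Control 3 (0.0892). Both Tgif2 probe sets passed over all probe sets, at -1.15 and -1.06. Without Control 3, or without Control 1 and dKO 1 together, 0 of the TALE genes passed.

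Hlf encodes a PAR bZIP factor that marks stem cells and is linked to their quiescence. By 1434736_at it had 8.43, 7.81 and 8.08 in dKO, against 8.48, 8.40 and 8.49 in Control. The Control pools were tight, and dKO 1 lay within them, so the change of -0.36 (95% interval -0.80 to 0.08) did not pass (adjusted p = 0.399). The second probe set, 1434735_at, had 6.15, 6.59 and 7.26 in dKO, against 7.06, 7.51 and 7.15 in Control, with a change of -0.57 (-1.23 to 0.08) and dKO 3 among the Control pools. Of the 3 relatives Dbp, Tef and Nfil3, 0 passed and 1 lay under an unadjusted p of 0.05. That was Dbp, at 6.70, 7.31 and 7.09 in dKO, against 7.40, 7.51 and 9.08 in Control (-0.96 ± 0.41, adjusted p = 0.246), with Control 3 far above the rest.

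Mecom and Prdm16 encode related PR-domain zinc finger proteins, and both are needed for stem cell maintenance in the mouse. Mecom had 8.75, 9.36 and 8.56 in dKO, against 8.35, 7.77 and 8.25 in Control (1438325_at). Each dKO pool lay above each Control pool, and the change of 0.77 ± 0.25 (SE; 95% interval 0.20 to 1.33), or 1.70-fold, did not pass (adjusted p = 0.128). The dimmer probe sets did not share it: 1422295_at had 5.75, 5.18 and 5.14 in dKO, against 5.39, 5.31 and 5.09 in Control, and 1423011_at stayed between 2.86 and 3.24 on all arrays. Prdm16 had 7.18, 7.42 and 6.90 in dKO, against 8.14, 7.77 and 7.68 in Control (1440870_at). Each dKO pool lay below each Control pool, and the change of -0.69 ± 0.21 (SE; 95% interval -1.16 to -0.23), or 1.62-fold, did not pass (adjusted p = 0.0919).

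The 4 Prdm16 probe sets disagreed. By 1429308_at the gene had 5.63, 5.52 and 5.56 in dKO, against 4.87, 5.29 and 5.25 in Control, so here every dKO pool lay above every Control pool (0.43, 95% interval 0.02 to 0.85, adjusted p over all probe sets = 0.289). The probe sets 1429309_at and 1440745_at overlapped between the groups, with changes of -0.09 and 0.18, and averaging the 4 gave -0.04. Which transcripts each probe set reads is not given in the sources used here. Of 10 other PRDM genes 0 passed the limma test and 1 lay under an unadjusted p of 0.05. That was Prdm1, which encodes a repressor of transcription (0.65 ± 0.21, adjusted p = 0.122).

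**Figure D3:**
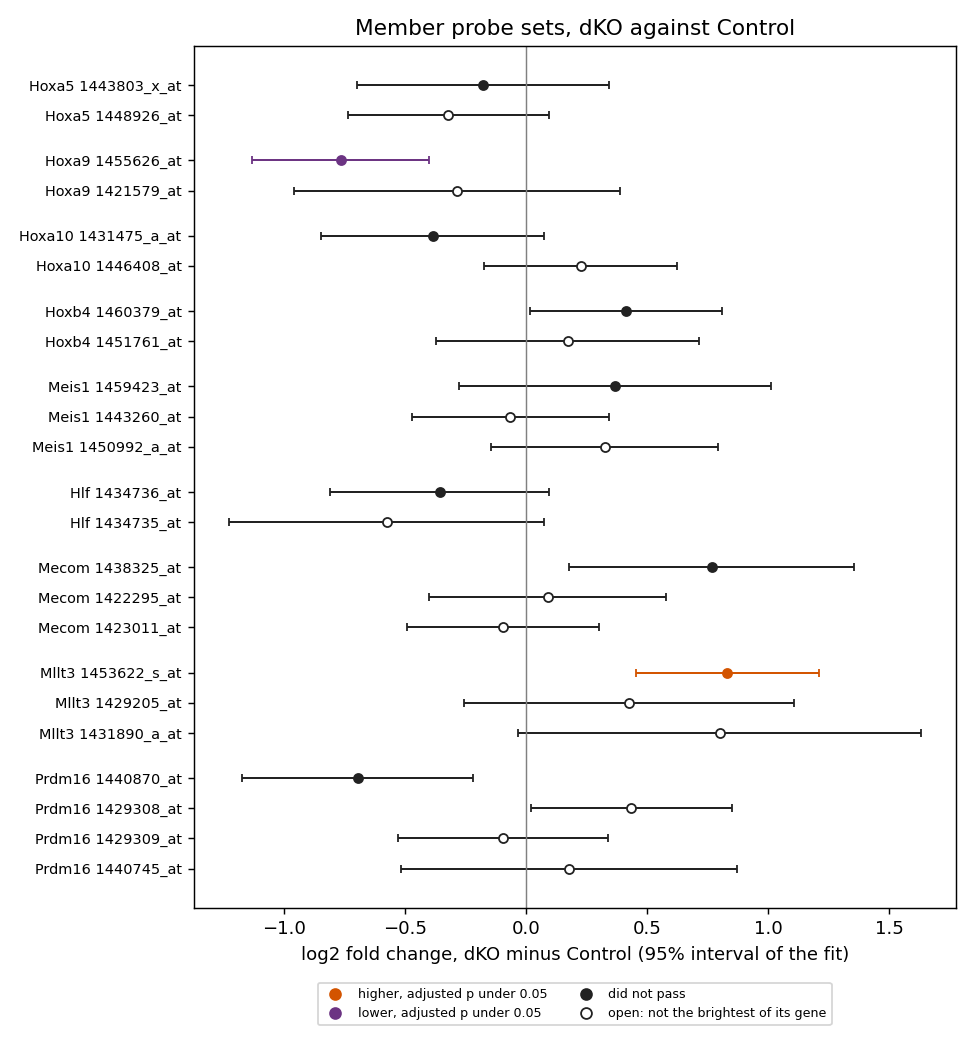
Log2 fold change, dKO minus Control, of the 23 probe sets with the 95% interval of the fit; filled points are the brightest probe set of each gene and colours mark those past an adjusted p of 0.05 over all probe sets. Only Hoxa9 1455626_at (-0.76) and Mllt3 1453622_s_at (0.83) passed, and the Prdm16 probe sets run from -0.69 to 0.43.

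Probe sets of a gene shared 1 sign in 5 of the 9 genes (Hoxa5, Hoxa9, Hoxb4, Hlf and Mllt3) and differed in sign in Hoxa10, Meis1, Mecom and Prdm16. In each called gene the brightest probe set had the smallest spread between pools. Of the 23 probe sets 18 had a mean above the median of all probe sets, and of the 9 genes 8, all but Hoxa10, had one above the median of all genes. Over the 6 arrays, the 3 genes whose levels followed Hoxa9 most closely among 9095 brighter genes were Tfrc (Pearson r = 0.997), Fam199x (0.996) and Iqgap2 (0.996). For Mllt3 they were Lfng (0.9997), Synj2 (0.995) and Ppbp (0.994). These correlations are a description over 6 arrays in groups of 3, and each of the 6 genes differs between the groups in the direction of Hoxa9 or Mllt3.

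Genes that work on HOX loci showed no call, where 5.97% of all genes were called. Of 16 genes of the MLL, DOT1L and elongation complexes 0 passed the limma test, 1 lay under an unadjusted p of 0.05 and the median was 0.11. Ell, an elongation factor, differed by 0.47 ± 0.21 (adjusted p = 0.271), and Mllt6, which encodes AF17, by -0.29 ± 0.16 (0.391). Of 12 Polycomb genes, whose products silence HOX loci, 0 passed, 1 lay under an unadjusted p of 0.05 and the median was -0.09. Phc1 differed by 0.50 ± 0.18 (adjusted p = 0.165) and Cbx7 by -0.38 ± 0.19 (0.337). The pools did not overlap in 2 of the 12 Polycomb genes, Phc1 and Cbx7. Nor did they overlap in 2 of the 16 MLL, DOT1L and elongation genes, Ell and Mllt6. Over all genes 23.4% did not overlap.

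Of 19 other transcription factors of blood stem cells, 3 rose and 1 fell, with a median of 0.25, where 5.97% of all genes were called. The pools did not overlap in 8, 7 of them with dKO above, where 23.4% of all genes did not overlap. Gata2 and Tal1, regulators of stem cells and of the megakaryocyte and erythroid lines, averaged 11.8 and 9.94 in dKO, against 10.4 and 8.81 in Control, and rose by 1.34 ± 0.24 and 1.13 ± 0.18 (adjusted p = 0.0115 and 0.00597). Cited2, a coactivator needed by stem cells, rose by 0.97 ± 0.19 (adjusted p = 0.0166) and lost the call without dKO 1 (0.0530), Control 1 (0.0634) or Control 3 (0.0606). Zfp521, a zinc finger gene of immature blood cells, averaged 4.42 in dKO and 5.51 in Control and fell by 1.09 ± 0.26 (adjusted p = 0.0404). That call was lost without any one of dKO 2, dKO 3, Control 1, Control 2 or Control 3 (0.0619 to 0.137), and its other probe set differed by 0.04. The number called was 2 without Control 1 or Control 3. Without Control 1 and dKO 1 together it was also 2, Gata2 (adjusted p = 0.0155) and Zfp521 (0.0463), and Tal1 (0.0756) and Cited2 (0.145) lost their calls.

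Genes reported as targets of HOXA9 or MEIS1 in leukaemia models did not move in 1 direction. Of 13, 3 rose and 1 fell, with a median of 0.21, where 5.97% of all genes were called. Without Control 1 and dKO 1 together 2 were called, with Igf1r (adjusted p = 0.0750) and Bcl2 (0.139) lost. Flt3, the cytokine receptor of early lymphoid and myeloid progenitors, had 5.56, 6.31 and 6.58 in dKO, against 8.67, 9.15 and 8.83 in Control, and fell by 2.73 ± 0.27 (adjusted p = 0.000668). Pim1, a survival kinase, rose 2.82-fold (adjusted p = 0.00102), and the growth factor receptor gene Igf1r by 1.04 ± 0.17 on the log2 scale (0.00786), with 5 of its probe sets passing. Bcl2, which restrains apoptosis, rose by 0.78 ± 0.16 (adjusted p = 0.0201) and kept that call without dKO 3 but lost it without any other single array (0.0510 to 0.1). Only the brightest of the Bcl2 probe sets passed over all probe sets. With the mean of the gene's probe sets the call was lost (0.55, adjusted p = 0.0847).

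Of 13 stem cell surface and signalling genes 1 rose and 1 fell, with a median of -0.20, where 5.97% of all genes were called. Tek, the angiopoietin receptor TIE2 of quiescent stem cells and endothelium, had 4.83, 5.52 and 4.36 in dKO, against 7.73, 7.70 and 7.85 in Control, and fell by 2.86 ± 0.27 (adjusted p = 0.000551). Cd9, a tetraspanin, rose by 1.03 ± 0.19 (adjusted p = 0.0145) and lost the call without Control 1 (0.0536) or Control 2 (0.0713), and without Control 1 and dKO 1 together (0.0933). Procr and Fgd5, used as stem cell markers, differed by -0.20 ± 0.19 and -0.45 ± 0.49 without passing.

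Markers of several cell types differed between the groups alongside these genes, and their part in the values of Hoxa9, Mllt3, Mecom and Prdm16 was not tested. For the counts below, 3.12% of all genes were called higher and 2.85% lower. The levels that follow are the log2 of a list's summed linear signal on each array. Of 8 megakaryocyte markers 5 rose and 0 fell, and their level lay between 13.2 and 13.5 in dKO and between 11.47 and 11.50 in Control, with Selp (3.52) and Ppbp (4.87) among the log2 fold changes. The rest of the list, Gp9 (0.25), Vwf (0.21) and Clec1b (-0.29), did not pass. Markers of T and NK cells rose in 6 of 12 cases, with 0 lower (10.9 to 11.2 in dKO and 9.91 to 10.1 in Control), including Klrk1 (1.76) and Gata3 (1.25). Of 8 mesenchymal stroma markers 1 rose, Col1a2 (2.70), and the level spread from 9.35 to 11.5 in dKO, highest in dKO 1, against 8.74 to 9.05 in Control. Without dKO 2, 2 of them were higher.

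Of 11 B cell and lymphoid progenitor markers 3 fell, Dntt (-4.99), Flt3 (-2.73, also counted above) and Rag1 (-2.28), and 0 rose. The level was 10.1 to 10.6 in dKO and 11.7 to 12.2 in Control. Dntt was the brightest of the list in every Control pool (10.7 to 11.3), so it weighs most in the Control level. The rest did not pass and had both signs. Cd79a (0.396), Cd79b (0.26), Ms4a1 (0.26) and Pax5 (0.101) lay above 0, and Igll1 (-0.73), Vpreb1 (-0.67), Ebf1 (-0.21) and Il7r (-0.21) below. Of 10 granulocyte and monocyte markers 3 fell, Irf8 (-2.33), Csf1r (-2.44) and Lyz2 (-1.62), and 0 rose (10.7 to 12.3 in dKO and 13.1 to 13.8 in Control), with 5 lower without Control 1 and 6 without Control 1 and dKO 1 together. The erythroid and endothelial levels overlapped between the groups. In the erythroid list of 6, Car1 (0.78) rose and Tfrc (-1.35) fell. The call on Car1 held without dKO 3 and was lost without any other single array (adjusted p 0.0827 to 0.145) and without Control 1 and dKO 1 together (0.256). In the endothelial list of 8, Tek and Cdh5 (-0.97) fell. The call on Cdh5 held without Control 1 and was lost without any other single array (0.0544 to 0.140). The lowest value of any probe set was 1.53, so a value above 0 does not show that a marker was transcribed, and no detection calls were used.

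**Figure D4:**
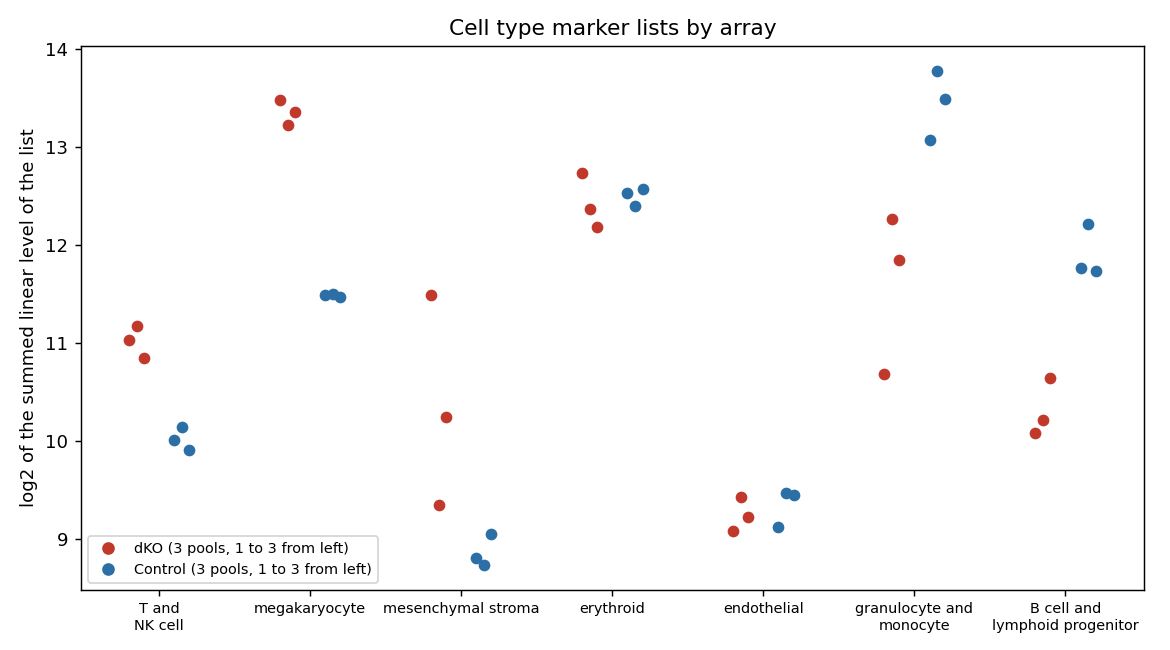
Log2 of the summed linear signal of each cell type marker list on the 3 dKO pools (red, left) and the 3 Control pools (blue, right); levels of different lists are not comparable with each other. The megakaryocyte level is 13.2 to 13.5 in dKO and 11.47 to 11.50 in Control, the B cell and lymphoid progenitor level 10.1 to 10.6 in dKO and 11.7 to 12.2 in Control. Dntt is the brightest gene of the B cell and lymphoid progenitor list in every Control pool.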

How the data were processed

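Expression was measured on Affymetrix mouse arrays. Trizol was used to extract the RNA, which then went through 2 rounds of amplification and biotin labelling, per the labels' protocols. The deposited log2 values come from RMA run by the authors (per the submitters' processing notes, with no version). This method corrects background, normalizes the arrays it is given to each other (whether all 6 were run together is not given in the sources used here) and combines the probes of a probe set, and it compresses fold changes of dim probe sets. Medians per array ranged from 5.91 to 5.94. Precision is limited by having 3 arrays per group, each a separate pool of mice.

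The value table had 45101 rows, of which 64 were controls. Platform annotation named 1 gene for 34945 of the rest. The gene identifier of 34741 was found in RefSeq, and these took the RefSeq symbol. Groups came from sample titles. The test was limma 3.58.1 in R 4.3.3 (lmFit, eBayes, two-sided, Benjamini-Hochberg over all genes or all probe sets), run on simulated data first. Intervals are 95% intervals of the fit, not adjusted. The 9 genes, the lists and the alternatives were chosen with earlier results of these data known. So was the named-gene rule (up to 4 called genes of a list by smallest p, or 2 where none was called). Procr, Fgd5, Nfil3, Hoxd13, Hoxd10, Hoxa3, Hoxa7 and Hoxc9 were named outside that rule. The same holds for the uncalled markers of the megakaryocyte list and of the B cell and lymphoid progenitor list. Alternatives covered dim features, scaling, variance model, array weights, replicate number, probe set choice, threshold and left-out arrays. Figures were drawn with matplotlib 3.10.9.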

Additional observations from a re-analysis of the deposited data

How the results depend on the processing

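Calls on these genes were few and sat close to the threshold. By gene, 2 of the 9 were called, but 0 at an adjusted p threshold of 0.01, without Control 1 and dKO 1 together or with the mean of a gene's probe sets, 1 without _x_at and _s_at probe sets, and 0 to 2 with single arrays left out. By probe set, 2 of 23 were called, but 0 at a threshold of 0.01 and without both those pools, and 0 to 1 with single arrays left out. Over all genes, 1086 calls became 437 at a threshold of 0.01, 1697 with array weights, 578 without both pools and 572 to 1081 with single arrays left out. Over all probe sets, 1622 became 515, 2509, 565 and 661 to 1472 under the same changes. With the replicate number as a block, 1 of the 9 genes and 0 of the 23 probe sets were called, and Hoxa9 had an adjusted p of 0.0561 by gene. Same-numbered arrays had correlations of their deviations from the group means of 0.0619, -0.0347 and 0.0056, and dKO 2 correlated best with Control 3, so the numbers were not taken as pairs.

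The sign turned for some values that had not passed. With single arrays left out, Hoxa5 1443803_x_at, also its value by gene, ran from -0.30 to 0.035, Mecom 1422295_at from -0.11 to 0.20, Mecom 1423011_at from -0.15 to 0.0063, Prdm16 1429309_at from -0.22 to 0.0054, Prdm16 1440745_at from -0.11 to 0.47 and Meis1 1443260_at from -0.15 to 0.026. Without both pools, Hoxa9 1421579_at was 0.19, Mecom 1422295_at -0.043, Prdm16 1429309_at 0.082, Prdm16 1440745_at -0.18 and Meis1 1443260_at 0.052. The cause was not tested. Neither rescaling changed a sign or a call among the 32 member values.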
